A study of Drosophila melanogaster with 9 samples.

Results

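The genes described here encode products of the *Drosophila* accessory gland, ejaculatory duct and ejaculatory bulb, and they were measured in RNA from whole testes. They were taken from a list of 36 names, which stand for 34 genes because *CG1652* and *CG1656* are older names of *lectin-46Cb* and *lectin-46Ca*. A gene was measured where a probe set of the array carried its symbol and no other. This held for 30 genes, each with 1 probe set, among 11982 genes that could be named on the array. *Acp33A* and *Acp24A4* share their probe sets with another symbol, and *Acp54A1* and *Est-6* are not named by the annotation table used here, so these 4 genes enter no count. Of the 30 genes, 5 lie on chromosome arm 2L, 12 on 2R, 6 on 3L and 7 on 3R.

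The study asked how depletion of tBRD-2, a bromodomain protein of the testis, changes transcription in this organ. RNA of 3 genotypes was hybridized to 3 Affymetrix Drosophila Genome 2.0 arrays each, and every array received RNA from its own pool of animals. Knockdown males (*bam*≫*tbrd-2RNAi*, label bam/y;+/+;bam/tbrd-2RNAi) carried 2 copies of *bam*-Gal4 and 1 copy of the *tbrd-2RNAi* hairpin. The *bam*-Gal4 control (bam/y;+/+;bam/Sb) carried 2 copies of the driver and no hairpin, and the undriven *tbrd-2RNAi* control (+/+;tbrd-2RNAi/Sb) carried 1 copy of the hairpin and no driver. The Sb chromosome of both controls is absent from the knockdown males. All males were 0 to 2 days old and came from cultures kept at 30°C. The *bam* promoter drives Gal4 in early germ cells of the testis, and the knockdown rests on 1 hairpin line. The labels give pools of 30 animals, and the methods state a different number. Nothing more is said of the pools. Animals, dissection, RNA preparation and hybridization all differ between arrays of a genotype, and their shares in the spread cannot be told apart.

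The accessory glands are paired secretory organs that join the ejaculatory duct close to the point where the seminal vesicles of the testes open into it. Their main and secondary cells secrete seminal fluid proteins, which the male transfers with the sperm and which alter egg laying, receptivity and sperm storage in the mated female. The ejaculatory duct and the ejaculatory bulb further down the tract add their own peptides and the proteins of the mating plug. None of these organs belongs to the testis, and the genes below were listed as products of the glands, duct or bulb. *EbpIII* is also known from other tissues, and whether cells of the testis express any of these genes was not tested.

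Values are log2 RMA values, the log2 of a normalized probe set brightness, so that a step of 1 is a doubling. Over all probe sets they ran between 2.5 and 14.53, with array medians of 5.86 to 5.96. The level of *tbrd-2* was 7.82 to 8.06 on the knockdown arrays, 10.52 to 10.73 on the *bam*-Gal4 arrays and 10.19 to 10.39 on the undriven arrays. The 8 measured germline markers of the testis averaged 9.49 to 9.65 per array, a range of 1.12-fold. Gut enzymes were uneven: their mean over 10 of 12 listed genes was 5.36, 5.55 and 8.01 on the knockdown arrays, 5.58, 5.63 and 5.62 on the *bam*-Gal4 arrays, and 6.04, 5.61 and 7.38 on the undriven arrays. The comparisons were repeated without knockdown 3 and undriven 3, the 2 arrays high in gut enzymes.

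Transcripts of the 30 genes, those of duct and bulb included, were measured on every array, and their mean differed more between arrays of a genotype than between genotypes. The mean over the 30 genes was 9.30, 8.93 and 10.86 on the knockdown arrays 1, 2 and 3. It was 7.25, 10.93 and 9.35 on the *bam*-Gal4 arrays and 9.43, 8.33 and 8.68 on the undriven arrays. The *bam*-Gal4 arrays held both the lowest and the highest value, and the genotypes overlapped. From the lowest to the highest array the mean differed by 3.68 on the log2 scale, or 12.8-fold, and without *bam*-Gal4 1 by 2.61. By genotype it was 9.70 ± 1.02 in knockdown testes, 9.18 ± 1.85 in *bam*-Gal4 testes and 8.81 ± 0.56 in undriven testes (SD, n = 3 each). In bulk RNA of this kind, fewer cells of a type and less RNA per cell cannot be told apart.

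The 5 genes set down as markers of the accessory gland (*Acp26Aa*, *Acp36DE*, *Acp62F*, *SP* and *Acp98AB*) averaged 11.58, 10.91 and 12.54 on the knockdown arrays, 8.79, 12.81 and 11.00 on the *bam*-Gal4 arrays, and 11.32, 10.02 and 10.55 on the undriven arrays. The duct markers measured, *Dup99B* and *Gld*, averaged 5.89, 6.98 and 9.87 on the knockdown arrays, 7.10, 10.91 and 10.68 on the *bam*-Gal4 arrays, and 8.72, 7.04 and 7.09 on the undriven arrays. The 3 bulb markers *Ebp*, *EbpII* and *EbpIII* averaged 7.62, 8.82 and 10.71 on the knockdown arrays, 8.33, 9.34 and 9.76 on the *bam*-Gal4 arrays, and 7.90, 8.48 and 9.18 on the undriven arrays. The lowest array was *bam*-Gal4 1 for gland markers and knockdown 1 for duct and bulb markers. The highest was *bam*-Gal4 2 for gland and duct markers and knockdown 3 for bulb markers.

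**Figure D1:**
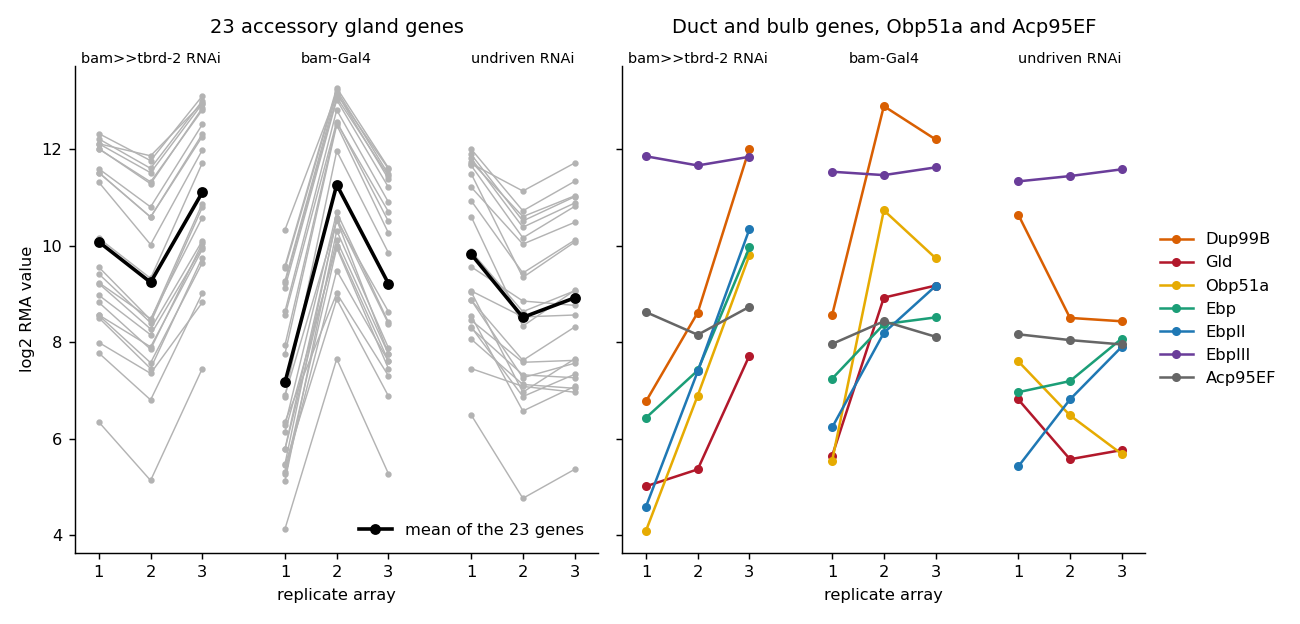
Log2 RMA values (vertical axis) of the 30 genes on the 9 arrays (horizontal axis, replicates 1 to 3 within each genotype). Left, 23 accessory gland genes in grey with their mean in black; right, the other 7 genes in colour. Lines only tie the points of a gene together within a genotype. The grey lines keep nearly the same shape, lowest on bam-Gal4 1, while the coloured lines of duct and bulb genes take other shapes and EbpIII and Acp95EF stay flat.

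To ask which genes moved together, each array's value was taken as its deviation from the mean of its genotype, and each gene was correlated with the mean of all the other genes over the 9 arrays. At a Pearson r of at least 0.8, 27 of 30 genes followed the others, while 2.41% of all probe sets reached that r with the mean of the 30. *Ebp*, *EbpII* and *EbpIII* did not. On the log2 values themselves, without removing genotype means, 23 of 30 genes reached 0.8, against 1.47% of all probe sets, and *Dup99B*, *Obp51a*, *Gld* and *Acp95EF* were then below it too. These correlations describe 9 arrays that share their RNA between genes, and no p is given for them.

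A block of 23 genes, all of the accessory gland members but *Acp95EF* and *Obp51a*, moved nearly as a unit; this division was made after the values were seen. Their r ranged from 0.94 to 0.99 on deviations and from 0.93 to 0.99 on log2 values. All 23 were lowest on *bam*-Gal4 1. On *bam*-Gal4 2, 19 of them were highest, and the other 4 (*lectin-46Ca*, *lectin-46Cb*, *CG17575* and *Acp32CD*) were highest on knockdown 3. The span between the lowest and the highest array was 6.32-fold for *antr* and 39.7-fold for *Acp32CD*, the extremes of the block. Per unit of the mean of the other genes, the 23 moved by 0.68 to 1.34 log2 units.

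Among the genes that act on ovulation and on the behaviour of the mated female, *SP* encodes sex peptide, which lowers receptivity and raises egg laying. It was 12.11, 11.51 and 12.94 on the knockdown arrays, 9.53, 13.22 and 11.48 on the *bam*-Gal4 arrays, and 11.74, 10.60 and 11.03 on the undriven arrays. The *bam*-Gal4 arrays enclosed all others, so the genotypes overlapped, and the whole span was 12.9-fold. *Acp26Aa*, the gene of ovulin, which stimulates ovulation, was 10.15, 9.32 and 11.71 on the knockdown arrays, 6.87, 11.96 and 9.85 on the *bam*-Gal4 arrays, and 9.88, 8.63 and 9.06 on the undriven arrays. It put the arrays in nearly the same order as *SP* with a wider span of 34.1-fold. Its direct neighbour *Acp26Ab*, with no gene between them, ran between 6.27 and 10.69 with an r of 0.99 on deviations. The r of *SP* was 0.98.

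Genes linked to sperm storage and sperm competition behaved alike. *Acp36DE*, a mating plug protein needed for sperm storage, was 12.01, 11.28 and 12.85 on the knockdown arrays, 9.27, 13.16 and 11.38 on the *bam*-Gal4 arrays, and 11.81, 10.38 and 10.88 on the undriven arrays. The ratio of *Acp36DE* to *SP* varied by no more than 1.26-fold over the 9 arrays, although the genes themselves spanned 14.8-fold and 12.9-fold. *Acp29AB*, a lectin that helps to retain stored sperm, ran between 5.78 and 10.11, and *Acp62F*, a trypsin inhibitor, between 7.94 and 12.55. Both had *bam*-Gal4 1 as their lowest and *bam*-Gal4 2 as their highest array.

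*Acp53C14a*, *Acp53C14b*, *Acp53Ea* and *Acp53C14c* lie in a row on 2R with no gene between them, and variants of *Acp53Ea* have been tied to sperm competition. *Acp53C14a* was 12.32, 11.76 and 13.10 on the knockdown arrays, 9.58, 13.27 and 11.61 on the *bam*-Gal4 arrays, and 12.00, 10.72 and 11.33 on the undriven arrays. Again the genotypes overlapped, with the *bam*-Gal4 arrays at both ends. The r of the 4 neighbours with the other genes was 0.98 for *Acp53C14a*, *Acp53C14b* and *Acp53Ea* and 0.96 for *Acp53C14c*, whose span was the widest of the 4 at 26.7-fold.

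The sex peptide network is a set of seminal proteins that load sex peptide onto stored sperm. Of its members, 8 were measured: the lectins *lectin-46Ca* and *lectin-46Cb*, the cysteine-rich secretory proteins *CG17575* and *antr*, and *CG9997*, *aqrs*, *intr* and *Sems* of the serine protease class, of which *Sems* (seminase) acts in processing other seminal proteins. *CG17575* was 9.55, 8.46 and 10.87 on the knockdown arrays, 6.90, 10.52 and 8.63 on the *bam*-Gal4 arrays, and 9.56, 8.85 and 8.76 on the undriven arrays. Its highest array was knockdown 3, and the 3 genotypes overlapped. *aqrs* was 8.82, 7.85 and 10.05 on the knockdown arrays, 5.12, 10.31 and 7.88 on the *bam*-Gal4 arrays, and 8.87, 7.26 and 7.56 on the undriven arrays, a span of 36.5-fold. *intr*, the gene with the lowest mean value of the 30, was 6.34, 5.13 and 7.45 on the knockdown arrays, 4.13, 7.65 and 5.27 on the *bam*-Gal4 arrays, and 6.49, 4.76 and 5.36 on the undriven arrays. In spite of these low values it still had an r of 0.94. All 8 network genes were lowest on *bam*-Gal4 1, and their r ranged from 0.94 to 0.99. The lectins are direct neighbours, as are *CG17575* and *antr*, and *CG9997* and *aqrs*, while *aqrs* and *intr* are parted by 1 gene.

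Among the remaining gland products, *Acp76A*, a serpin-type protease inhibitor, was 11.31, 10.02 and 11.98 on the knockdown arrays, 7.76, 12.50 and 10.26 on the *bam*-Gal4 arrays, and 10.60, 8.33 and 9.07 on the undriven arrays. Here undriven 2 and undriven 3 lay below every knockdown array, and undriven 1 did not. *Acp98AB*, a secreted product with the highest mean value of the 30, was 12.11, 11.86 and 12.95 on the knockdown arrays, 10.33, 13.15 and 11.59 on the *bam*-Gal4 arrays, and 11.70, 11.13 and 11.71 on the undriven arrays. Its knockdown arrays were all above its undriven arrays, which held for 17.4% of all probe sets, and overlapped with the *bam*-Gal4 arrays. Its span of 7.06-fold was among the narrowest of the block. *Acp32CD* ran between 5.48 and 10.79, *Acp63F* between 8.64 and 12.81, and *msopa*, a male-specific transcript with opa repeats, between 8.55 and 12.57. All 3 had an r of 0.97 or 0.98.

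**Figure D2:**
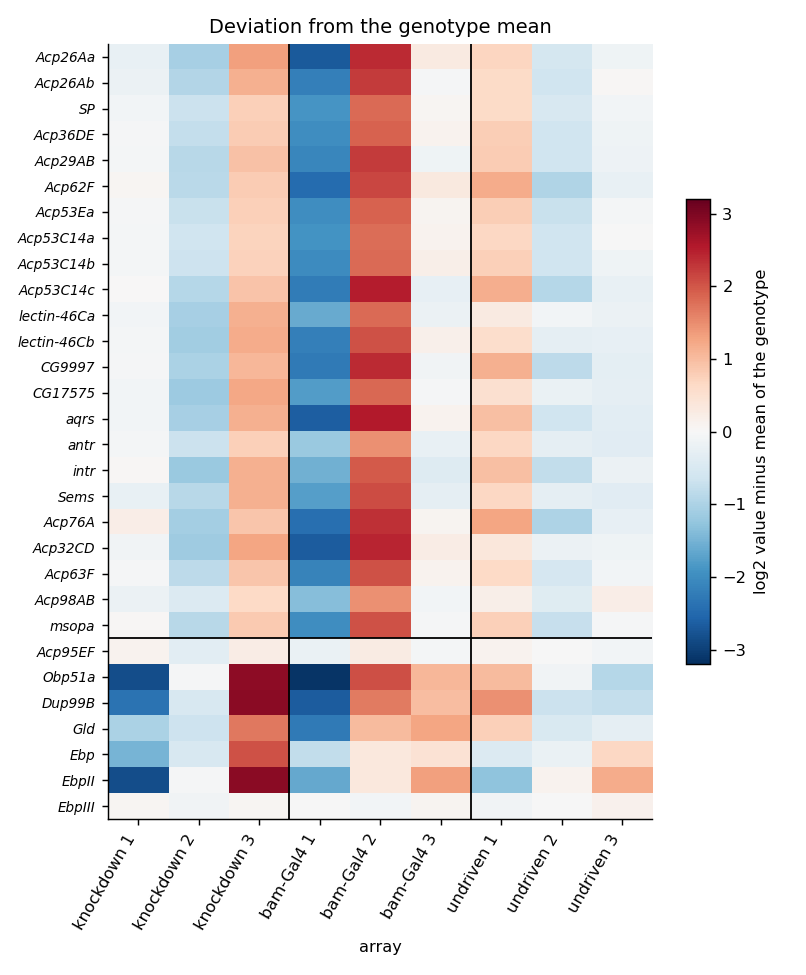
Deviation of each gene (rows) on each array (columns) from the mean of its genotype, in log2 units, red above and blue below the mean. The upper 23 rows share 1 pattern, blue on knockdown 2 and bam-Gal4 1 and red on knockdown 3 and bam-Gal4 2. Obp51a, Dup99B, EbpII and Ebp are blue on knockdown 1, where the gland genes are near 0, and Acp95EF and EbpIII are pale throughout.

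*Dup99B*, *Gld* and *Obp51a* formed a group of their own. *Dup99B* encodes a peptide of the ejaculatory duct related to sex peptide, and *Gld* glucose dehydrogenase, an enzyme of the duct. *Obp51a* belongs to the odorant-binding proteins, several of which are found in seminal fluid. *Dup99B* was 6.77, 8.61 and 12.01 on the knockdown arrays, 8.56, 12.89 and 12.20 on the *bam*-Gal4 arrays, and 10.64, 8.50 and 8.43 on the undriven arrays, a span of 69.6-fold. Its lowest array was knockdown 1, on which *SP* was the third highest of the 9. *Gld* was 5.01, 5.36 and 7.72 on the knockdown arrays, 5.64, 8.92 and 9.17 on the *bam*-Gal4 arrays, and 6.81, 5.57 and 5.76 on the undriven arrays, a span of 17.9-fold. *Obp51a* was 4.09, 6.89 and 9.80 on the knockdown arrays, 5.54, 10.73 and 9.74 on the *bam*-Gal4 arrays, and 7.60, 6.48 and 5.68 on the undriven arrays. All 3 were lowest on knockdown 1 and far higher on *bam*-Gal4 2 and 3 than on *bam*-Gal4 1, and *Obp51a* had the widest span of the 30 genes at 99.7-fold.

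Between them the correlations were tight. On log2 values, *Dup99B* and *Obp51a* had an r of 0.98 with a Spearman rho of 0.93, and *Dup99B* and *Gld* an r of 0.96 with a rho of 0.83. Without the 2 arrays farthest from the median of *Dup99B* these were 0.96 and 0.97. *SP* and *Dup99B* had an r of 0.57, a rho of 0.47 and an r of 0.37 without the 2 arrays farthest from the median of *SP*. On deviations from genotype means the r of *SP* and *Dup99B* was 0.78. The ratio of *Dup99B* to *SP* differed by 66.7-fold between its lowest array, knockdown 1, and its highest, *bam*-Gal4 3. Against the mean of the other genes, *Dup99B*, *Gld* and *Obp51a* reached an r of 0.85, 0.89 and 0.83 on deviations and of 0.66, 0.63 and 0.70 on log2 values. On deviations, *Dup99B* and *Gld*, the duct markers, had an r of 0.95 with each other, and *Obp51a* an r of 0.97 with the mean of both.

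*Ebp* and *EbpII*, which encode proteins of the ejaculatory bulb and lie side by side on 2R, made another group. *Ebp*, a mating plug protein, was 6.43, 7.41 and 9.96 on the knockdown arrays, 7.24, 8.37 and 8.51 on the *bam*-Gal4 arrays, and 6.96, 7.19 and 8.07 on the undriven arrays, a span of 11.6-fold. *EbpII* was 4.59, 7.39 and 10.34 on the knockdown arrays, 6.23, 8.19 and 9.16 on the *bam*-Gal4 arrays, and 5.42, 6.81 and 7.90 on the undriven arrays, a span of 53.8-fold. Both were lowest on knockdown 1 and highest on knockdown 3, and both were above undriven 1 on undriven 3, where the mean of the gland markers was lower than on undriven 1. Knockdown 3 and undriven 3 are the arrays with the most gut enzyme signal. The 10 gut enzymes had an r of 0.63 to 0.84 with the mean of the bulb markers on deviations, with *alphaTry*, *betaTry* and *Jon65Aiii* at 0.84, and their part in the bulb values was not tested. With each other *Ebp* and *EbpII* had an r of 0.96 and a rho of 0.98 on log2 values, and an r of 0.94 without the 2 arrays farthest from the median of *Ebp*. With the mean of all the other genes they reached 0.57 and 0.45 on deviations. *EbpII* and *SP* had an r of 0.37 on log2 values, and the ratio of *EbpII* to *SP* varied by 36.8-fold.

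**Figure D3:**
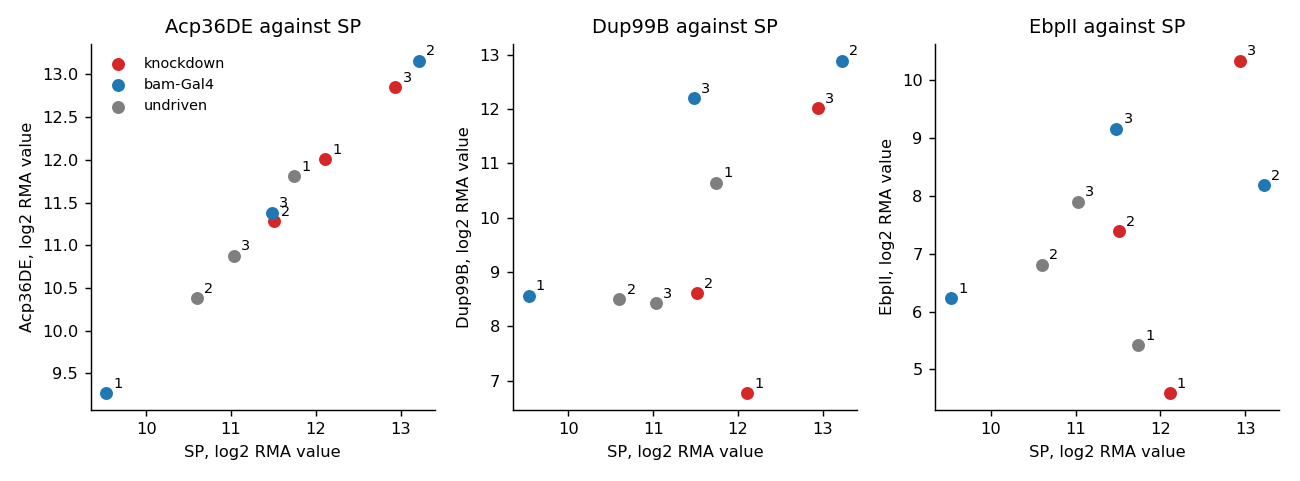
Log2 RMA values of Acp36DE, Dup99B and EbpII (vertical axes) against those of SP (horizontal axes) on the 9 arrays, coloured by genotype and numbered by replicate. Acp36DE lies on a line with SP, while knockdown 1 has the third highest SP value and the lowest values of Dup99B and EbpII.

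*EbpIII* and *Acp95EF* hardly moved. *EbpIII*, a bulb protein that is also known from other tissues, was 11.85, 11.66 and 11.84 on the knockdown arrays, 11.53, 11.46 and 11.62 on the *bam*-Gal4 arrays, and 11.33, 11.44 and 11.58 on the undriven arrays. Its whole span was 1.43-fold and its r with the other genes was −0.08 on deviations and 0.24 on log2 values. Every knockdown array lay above every control array. Against 1 control at a time, this held for 17.3% of all probe sets with *bam*-Gal4 and 17.4% with undriven. The share for both controls at once was not computed. Though counted among the bulb markers, *EbpIII* had an r of 0.31 with the mean of *Ebp* and *EbpII* on deviations. *Acp95EF*, a product of the accessory gland, was 8.62, 8.15 and 8.73 on the knockdown arrays, 7.96, 8.43 and 8.11 on the *bam*-Gal4 arrays, and 8.16, 8.04 and 7.95 on the undriven arrays. It kept the order of the gland genes in part, with an r of 0.80 on deviations, but moved by only 0.14 log2 units for each unit of the mean of the others, and its span was 1.72-fold.

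The spread between arrays of the same genotype was measured as the residual SD of each probe set after removal of the 3 genotype means. Its median over all probe sets was 0.11, with a 99th percentile of 0.99, whereas the median of the 30 genes was 1.34. Of the 30 genes, 26 were above the 99th percentile, which by construction takes in 1.0% of all probe sets. *Obp51a* (2.36), *Dup99B* (2.16) and *EbpII* (2.00) had the highest values. *antr* and *Acp98AB* fell just short at 0.95 and 0.90, *Acp95EF* at 0.23 was at percentile 93.5, and *EbpIII* at 0.11 was in the middle of all probe sets.

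**Figure D4:**
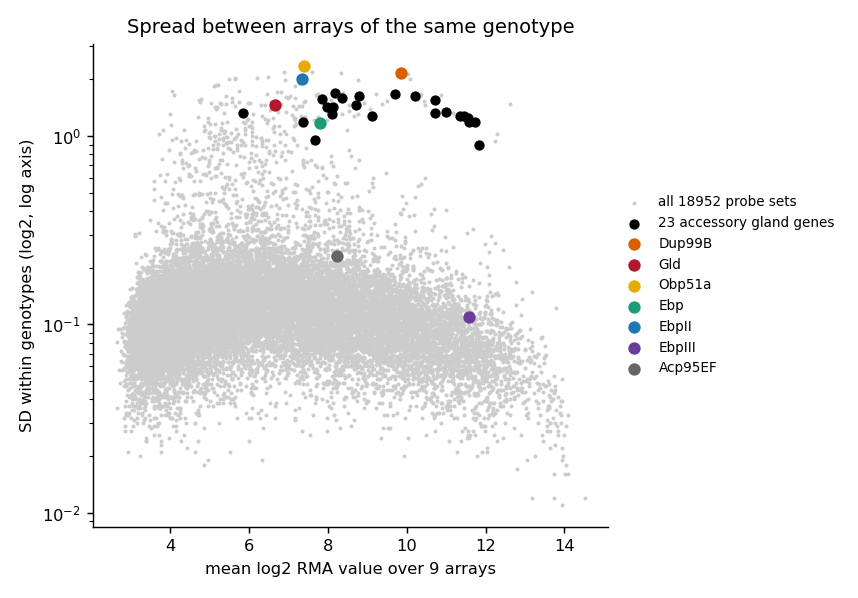
SD within genotypes on a log axis against the mean log2 RMA value over the 9 arrays, for all 18952 probe sets in grey and the 30 genes in colour. Apart from Acp95EF and EbpIII, the 30 genes sit at the upper edge of the cloud at their level of brightness; Acp95EF, at 0.23, lies below the 95th percentile of 0.26 and EbpIII, at 0.11, at the median.

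Between knockdown and *bam*-Gal4 testes, 0 of 30 genes were called, against 1.28% of all probe sets. For a call, limma's adjusted p had to be under 0.05 and the change at least 1 on the log2 scale, up or down. Log2-fold changes are knockdown minus control, so that positive values are higher in the knockdown. At an unadjusted p under 0.05, 1 gene (*EbpIII*) was higher, against 16.3% of all probe sets, and 0 were lower, against 14.6%. By sign, 25 of 30 genes were above 0, against 46.1% of all probe sets. As 23 of the genes moved nearly as a unit, this count is not made of separate observations. The median was 0.87, with −0.02 over all probe sets, and the median standard error was 0.88 for the 30 genes, against 0.09 for all probe sets. The sign of this median rested on *bam*-Gal4 1, without which it was −0.11. Its size varied with other arrays too: it was 1.86 without *bam*-Gal4 2 and 0.39 without knockdown 3 (also 0.39 without knockdown 3 and undriven 3).

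A log2-fold change of 1 or above was found for 8 genes (*Acp29AB*, *Acp62F*, *Acp53C14b*, *Acp53C14c*, *lectin-46Cb*, *CG9997*, *aqrs* and *Acp32CD*), against 0.976% of all probe sets, and none of them was called. By role, the 7 sperm storage genes had log2-fold changes of 0.78 to 1.17 against *bam*-Gal4 and the 8 sex peptide network genes of 0.50 to 1.14, with none called. *SP* differed by 0.78 (95% interval −0.99 to 2.55; limma adjusted p = 0.553), and by −0.16 without *bam*-Gal4 1. *Acp32CD* had the highest value at 1.39 (95% interval −1.04 to 3.82; limma adjusted p = 0.43). Opposite in sign, the duct genes *Dup99B* at −2.09 and *Gld* at −1.88 and the duct-like *Obp51a* at −1.74 were the only 3 genes at −1 or below, against 0.58% of all probe sets, and *bam*-Gal4 2 and 3 were high for all 3. Their limma adjusted p values were 0.365, 0.226 and 0.499. These sizes rested on single arrays. Without knockdown 1, *Dup99B* was at −0.91, *Gld* at −1.37 and *Obp51a* at −0.32, and without knockdown 3 they were at −3.53, −2.73 and −3.18. Without *bam*-Gal4 1, *Gld* reached −3.01 with a limma adjusted p of 0.026, the lowest over its 18 alternatives (the highest was 0.509), and was then the only gene called. *Ebp* at −0.11 and *EbpII* at −0.42 were near 0 beside standard errors of 0.78 and 1.32. Without knockdown 3 and undriven 3 they were at −1.12 and −1.87, with limma adjusted p values of 0.123 and 0.293.

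Between knockdown and undriven testes, 0 of 30 genes were called, against 1.26% of all probe sets. Here 28 of 30 were above 0, against 44.5%, and 16 were at 1 or above, against 1.05%, with a median of 1.02. Because 23 of the genes moved nearly as a unit, these counts are not made of separate observations. The array means of the 30 genes overlapped, at 8.93 to 10.86 on the knockdown arrays and 8.33 to 9.43 on the undriven arrays. None of the 30 genes was at −1 or below, against 0.718%. At an unadjusted limma p under 0.05, 2 genes (*Acp95EF* and *EbpIII*) were higher, against 15.7%, and 0 were lower, against 16.6%. The largest was *Acp76A* at 1.77 (95% interval −0.65 to 4.19; limma adjusted p = 0.293), whereas *Dup99B* and *Gld* were at −0.06 and −0.02. With each array left out in turn the median kept its sign, at 0.51 without knockdown 3 and 1.39 without knockdown 2. Without knockdown 3 and undriven 3 it was 0.45, *Dup99B* was at −1.88 and *Gld* at −1.0, while *Obp51a*, *Ebp* and *EbpII*, at 0.34, 0.53 and 0.73 on all arrays, were at −1.55, −0.15 and −0.12. Every knockdown array was above every undriven array for *Acp98AB* and *EbpIII*, 2 of 30 genes, against 17.4% of all probe sets. *Acp98AB* differed by 0.79 (limma adjusted p = 0.397).

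*EbpIII* was higher in knockdown testes by 0.33 on the log2 scale, or 1.26-fold, than in undriven testes (95% interval 0.14 to 0.53; limma adjusted p = 0.0253). Over 18 alternatives this limma adjusted p was between 0.00513 and 0.0866 and under 0.05 in 13. Not all of the 13 are separate checks. The setting of adjusted p alone repeats the main fit, with the same 0.0253. The mean of the probe sets of each gene (0.0237) leaves the values of *EbpIII* unchanged, as it has 1 probe set. In the main fit, 19.1% of all probe sets had a limma adjusted p under 0.05 against undriven. Without knockdown 3 and undriven 3 the difference of *EbpIII* was 0.37 with a limma adjusted p of 0.0524. Against *bam*-Gal4 testes the difference was 0.25 (95% interval 0.05 to 0.44; limma adjusted p = 0.0792). Non-overlapping values like these were found for 17.3% of all probe sets against *bam*-Gal4 in this direction, and both differences are below the fold limit of a call. In the same fit, *Acp95EF* differed from undriven by 0.45 (95% interval 0.09 to 0.81; limma adjusted p = 0.0859) and from *bam*-Gal4 by 0.33 (limma adjusted p = 0.198), and its knockdown arrays overlapped with those of both controls. Both comparisons use the same knockdown arrays and are not independent of each other.

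**Figure D5:**
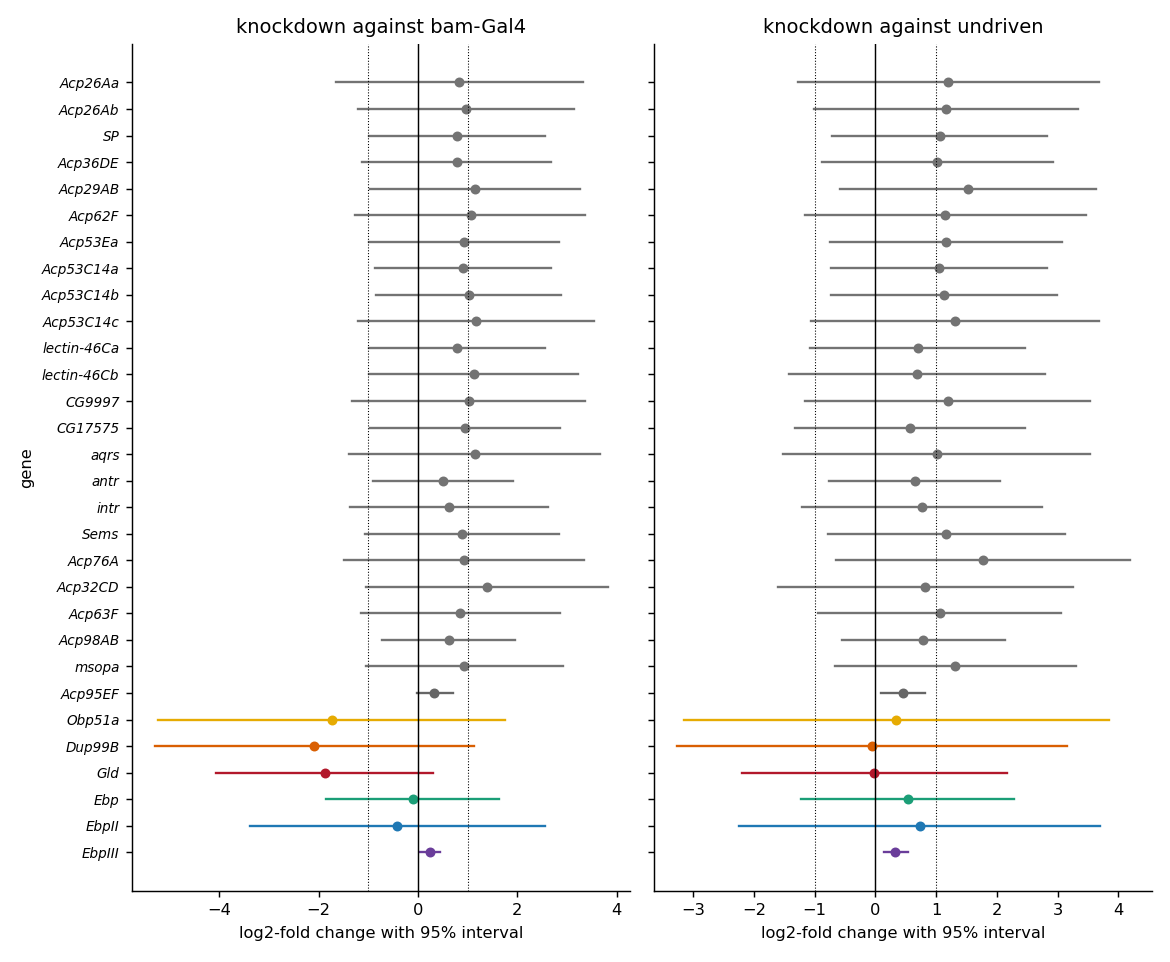
Log2-fold change of each gene (rows) with its 95% interval from limma (horizontal axis), knockdown against bam-Gal4 on the left and against undriven on the right, with dotted lines at the fold limit. Nearly all intervals cross 0, those of Obp51a, Dup99B and EbpII are the widest, and EbpIII alone lies wholly above 0 in both comparisons.

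Between the control genotypes, *bam*-Gal4 against undriven, 0 of 30 genes were called, against 0.38% of all probe sets, of which 0.174% were called higher and 0.206% lower. At an unadjusted limma p under 0.05, 0 genes were higher, against 4.75% of all probe sets, and 0 were lower, against 6.42%. In 0 genes was every *bam*-Gal4 array above every undriven array, against 6.71% of all probe sets. The median was 0.18. *Obp51a* at 2.08, *Dup99B* at 2.03, *Gld* at 1.86 and *EbpII* at 1.15 were the 4 genes at 1 or above, against 0.317% of all probe sets. The limma adjusted p values of *Gld*, *Dup99B* and *Obp51a* were 0.544, 0.689 and 0.711. *SP* was at 0.29 here, and at −0.62 without *bam*-Gal4 2. Over all 3 genotypes, limma's F test gave an adjusted p under 0.05 for 1 of 30 genes, *EbpIII* at 0.0476, against 20% of all probe sets, and for 0 genes without the 2 arrays high in gut enzymes. At an unadjusted p under 0.05 the same F test took in 1 of 30 genes, against 32.5% of all probe sets.

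Of 42 further genes listed as seminal fluid products, 18 were measured, and they did not divide cleanly between the marker sets. On deviations, 14 of 18 had an r of at least 0.8 with the gland markers, 14 with the duct markers and 3 with the bulb markers. The shares of all probe sets were not computed for these marker sets. With the mean of the 30 genes, 15 of 18 had an r of at least 0.8 on deviations, against 2.41% of all probe sets. *Anp*, the gene of andropin, an antibacterial peptide of the ejaculatory duct, was 7.30, 9.54 and 11.94 on the knockdown arrays, 8.52, 12.81 and 12.16 on the *bam*-Gal4 arrays, and 10.88, 9.08 and 8.55 on the undriven arrays. *Anp* was itself listed as a duct marker, so its likeness to the mean of *Dup99B* and *Gld* is not a separate finding. It had an r of 0.98 with that mean against 0.78 with the gland markers. The serpin genes *Spn77Bb* and *Spn77Bc* had 0.98 and 0.95 with the duct markers, and 0.88 and 0.85 with the gland markers. *Sfp24Bb* and *Obp56g* were nearer to the bulb markers, at 0.96 and 0.95, and both had 0.84 with the duct markers. *Npc2f* had the lowest r of the 18 with the 30 genes, 0.38, and 0.80 with the bulb markers. *Sfp24Bb*, *Obp56g* and *Npc2f* were highest on knockdown 3, at 6.51, 9.22 and 7.21, an array high in gut enzymes. None of the 18 was called in any of the 3 comparisons. Of all probe sets, 1.28% were called against *bam*-Gal4, 1.26% against undriven and 0.38% between the controls. In these comparisons 0 of the 18 were also at an unadjusted limma p under 0.05.

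Genes that specify or regulate the accessory gland were also measured. Of 7 listed, *prd*, *Hr39*, *dsx*, *dve* and *EcR* were measured, and their mean was 5.88 to 6.10 over the 9 arrays. *prd*, a transcription factor needed for accessory gland development, ran between 7.73 and 8.15, and *Hr39*, a nuclear receptor of reproductive glands, between 8.26 and 8.57. None of the 5 was called in the 3 comparisons, against the shares of all probe sets given above. On deviations, *Hr39* ran against the 30 genes with an r of −0.80, and of −0.87 with the gland markers, over the narrow span just given. *EcR*, the ecdysone receptor gene, which lay between 3.90 and 4.30, had an r of 0.89 with the bulb markers. The other 3 had an r between −0.70 and 0.49 with the 30 genes and with each marker set.

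Markers of other tissues were set against the same profiles. All 8 germline markers had a negative r with the 30 genes on deviations, between −0.89 and −0.20 with a median of −0.60. How many of all probe sets had a negative r was not computed, so this count has no background to be set against. *bam*, which acts in the switch of germ cells to differentiation, had −0.87 and ran between 6.49 and 6.86, and *Mst87F*, a sperm tail gene, had −0.89 and ran between 13.50 and 13.68. The spans of these germline genes were far narrower than those of the gland genes. With the 30 genes, r was between −0.63 and 0.57 for cyst cell and hub markers, −0.44 and 0.34 for muscle, 0.10 and 0.70 for fat body, and −0.60 and 0.54 for neurons. *Obp99b* of the fat body list, at 7.15, 7.97 and 8.98 on the knockdown arrays, 8.31, 9.34 and 9.87 on the *bam*-Gal4 arrays, and 7.44, 6.28 and 7.25 on the undriven arrays, had an r of 0.90 with the duct markers, the only one of the 6 fat body genes at 0.8 or above. Gut enzymes had an r of 0.22 to 0.52 with the 30 genes and of 0.17 to 0.39 with the gland markers, beside the higher values with the bulb markers given above. *bam*-Gal4 2, the array highest in accessory gland transcripts, had a gut mean of 5.63, and *bam*-Gal4 1, the lowest, one of 5.58. Knockdown 3, the next highest in accessory gland transcripts, had the highest gut mean of all arrays, 8.01. Any link between gland and gut values was not tested.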

How the data were processed

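Males, dissection and genotypes are described above. The authors deposited log2 values made with affy and RMA (background correction, quantile normalization and probe summary). No affy version is given in the sources used here. The methods describe a joint RMA run with published arrays for another comparison, and do not state which run was deposited. All 18952 probe sets were fitted with limma 3.58.1 in R 4.3.3 (lmFit, eBayes) on 3 genotype means without covariates, leaving 6 residual degrees of freedom (9.23 with the prior). P-values were adjusted by Benjamini-Hochberg over all probe sets. The scripts were tested on simulated data. Symbols came from the platform's annotation and the RefSeq gene table of Release 6 plus ISO1 MT, which also gave chromosome arms and neighbours. Python 3.11.15 with matplotlib 3.10.9 drew the figures.

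The members, their roles, the other gene lists and the tests were chosen with earlier results of these data known. Values on every array are given for the gene with the highest mean of each role group, for genes that do not follow the others and for extremes of level and residual SD; other genes shown array by array were picked after their values were seen. Alternatives were a replicate block, fits of 6 arrays, renewed quantile normalization, median centring, a filter on dim probe sets and another prior. Further ones were adjusted p alone, the mean of the probe sets of each gene, and leaving out each array. The number of arrays limits the precision.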

Additional observations from a re-analysis of the deposited data

How the results depend on the processing

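The count of genes called stayed at 0 in the 3 comparisons under the replicate block, fits of 6 arrays, renewed quantile normalization, median centring, the filter on dim probe sets and another prior. With adjusted p alone it was 1 (*EbpIII*) for knockdown against undriven, against 19.1% of all probe sets. Leaving out each array gave 0 to 1 for knockdown against *bam*-Gal4. Correlations of same-numbered deviations between genotypes were between −0.584 and 0.333. Those of differently numbered arrays were not computed, so whether replicate numbers pair the samples cannot be judged from them. With the replicate block the F test over 3 genotypes still took in 1 gene and 27 genes followed the others. The F test took in 0 genes after median centring, 0 without knockdown 3 and undriven 3 (a choice made after seeing the data), and 0 to 2 with each array left out. The count of genes that follow the others was 23 to 27 over the other choices of measure and threshold, 25 without knockdown 3 and undriven 3, and 24 (without *bam*-Gal4 1) to 27 with each array left out. Without knockdown 3 and undriven 3, the sign against undriven turned for *Obp51a* (−1.55), *Ebp* (−0.15) and *EbpII* (−0.12), and the median against undriven was 0.45. With each array left out, log2-fold changes of knockdown against *bam*-Gal4 ran between −0.16 and 1.68 for *SP*, −0.51 and 2.03 for *Acp26Aa*, −0.17 and 2.13 for *Acp62F*, −0.28 and 2.09 for *Acp76A*, −0.19 and 2.41 for *aqrs*, −1.12 and 0.65 for *Ebp*, −1.87 and 1.00 for *EbpII*, −3.53 and −0.91 for *Dup99B*, −3.31 and −0.32 for *Obp51a*, and −3.01 and −1.25 for *Gld*. Against undriven they ran between −1.50 and 1.12 for *Dup99B*, −1.10 and 1.76 for *Obp51a*, −0.86 and 0.49 for *Gld*, −0.49 and 1.28 for *Ebp*, and −0.72 and 2.16 for *EbpII*. For *bam*-Gal4 against undriven, *SP* ran between −0.62 and 1.23, and the median of the 30 genes between −0.74 without *bam*-Gal4 2 and 1.23 without *bam*-Gal4 1. The cause of these shifts was not tested. The range of the array means was 3.68 to 3.80 under renewed quantile normalization, median centring and the median over genes, and 2.61 (without *bam*-Gal4 1) to 3.68 with each array left out, which was added after seeing the data.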

Other observations

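The 10 genes outside the 30 whose deviations were most like those of the brighter members (mean of at least 8) were *CG34051*, *Sfp33A3*, *CG18231*, *CG14034*, *Obp22a*, *Sfp53D*, *CG31659*, *CG32985*, *Ugt50B3* and *Mst57Dc*, with an r of 0.995 to 0.998 over the 9 arrays. *Sfp33A3*, named as a seminal fluid protein, was 9.46, 8.67 and 10.70 on the knockdown arrays, 6.41, 11.02 and 8.70 on the *bam*-Gal4 arrays, and 9.13, 7.79 and 8.31 on the undriven arrays. *Ugt50B3*, of the UDP-glycosyltransferase family, ran between 5.21 on *bam*-Gal4 1 and 10.09 on *bam*-Gal4 2. Among the 7808 genes outside the 30 with a mean of at least 6, these 10 included, 212 had an r of at least 0.8 and 87 of at least 0.95.

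The 4 gland genes that were highest on knockdown 3 and not on *bam*-Gal4 2, *lectin-46Ca*, *lectin-46Cb*, *CG17575* and *Acp32CD*, were compared with the mean of the gland genes after their values were seen. Their mean offset from it, each gene centred over the 9 arrays, was −0.10, −0.29 and 0.17 on the knockdown arrays, −0.23, −0.23 and −0.17 on the *bam*-Gal4 arrays, and −0.03, 0.66 and 0.22 on the undriven arrays. Undriven 2 stood highest, the array on which *Acp76A* had its lowest offset at −0.91. The offsets of these 4 genes correlated with each other at an r of 0.18 to 0.87.

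The probe set shared by *Acp33A* and *CG15841* was 11.79, 11.07 and 12.80 on the knockdown arrays, 8.88, 12.89 and 11.16 on the *bam*-Gal4 arrays, and 11.26, 9.95 and 10.71 on the undriven arrays, with an r of 0.99 with the 30 genes. The one shared by *Acp24A4* and *CG3513* ran between 3.19 and 4.86, close to the lowest values of the arrays, with an r of 0.64. Which of the symbols each signal belongs to was not tested.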
